A study of Mus musculus with 24 samples.

Results

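Toll-like receptors and their co-receptors are the proteins with which a macrophage senses microbial products at its surface and in its endosomes. The genes described here are Tlr1, Tlr2, Tlr3, Tlr4, Tlr6, Tlr7, Tlr8 and Tlr9, with the co-receptors Cd14 and Ly96, taken as every probe of the value table that the platform annotation gives to 1 of these 10 symbols. The rule reads symbols and no measured value. The rule found 10 probes of 9 genes, 2 of them for Tlr4, among 25697 probes in all, and Tlr9, the endosomal receptor for unmethylated CpG DNA, is not analysed here. The arrays carried RNA of macrophages grown from the bone marrow of C57BL/6 mice, all female and 6 weeks old, in 8 groups of 3 biological replicates. BET-treated macrophages, given a bromodomain inhibitor whose identity, dose and time of addition the labels do not state, were sampled at 0, 1, 2 and 4 h of lipopolysaccharide (LPS), and control macrophages at the same 4 times. The labels do not say whether marrow was pooled or which mouse gave which culture. In such bulk samples, fewer cells of a type and less RNA per cell cannot be told apart.

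Toll-like receptors recognise microbial lipids, proteins and nucleic acids and pass the signal through the adaptors Myd88 and Ticam1 to NF-kB, MAP kinases and interferon regulatory factors. Tlr4 binds LPS together with Ly96 (MD-2), and Cd14 hands LPS to that complex, so the agent applied here is the ligand of one of the receptors measured. Tlr2 works as a heterodimer with Tlr1 or Tlr6 at the surface, while Tlr3, Tlr7 and Tlr8 sit in endosomes. BET proteins are bromodomain readers of acetylated histones, and inhibitors of this class displace them from chromatin.

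Levels are the deposited normalised log2 intensities of 1 probe, so they compare a gene between arrays but not one gene with another. A background floor of 6.455 log2 units, the 99th percentile of 1302 olfactory and vomeronasal receptor probes, marks the values that cannot be told from an unused gene. For 8 of the 9 genes every one of the 24 arrays lay above it. Tlr3 did so on 8 of 24 arrays and passed the filter through its levels at 4 h. The dimmer Tlr4 probe (ILMN_2690004) lay below the floor on all 24 arrays and is not used further. All 5 macrophage markers measured (Adgre1, Fcgr1, Lyz2, Mertk and Spi1) were above the floor on every array, whereas none of the 7 neutrophil, 5 B-cell, 3 T-cell, 5 dendritic-cell and 2 erythroid markers was above it throughout. On 1 array or more, 4 neutrophil, 1 B-cell, 0 T-cell, 1 dendritic-cell and 2 erythroid markers were above the floor. Of 4 stromal markers Dcn was above it throughout, and the summed linear level of the 4 stromal markers ran from 818 to 1066 in BET-treated cells at 4 h, against 804 to 999 in control cells at 4 h. The arrays numbered 1 stood furthest from their group means, with root mean square deviations of 0.20 to 0.25 log2 units against 0.12 to 0.19 for the others, and results that change without them are given as such.

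**Figure D1:**
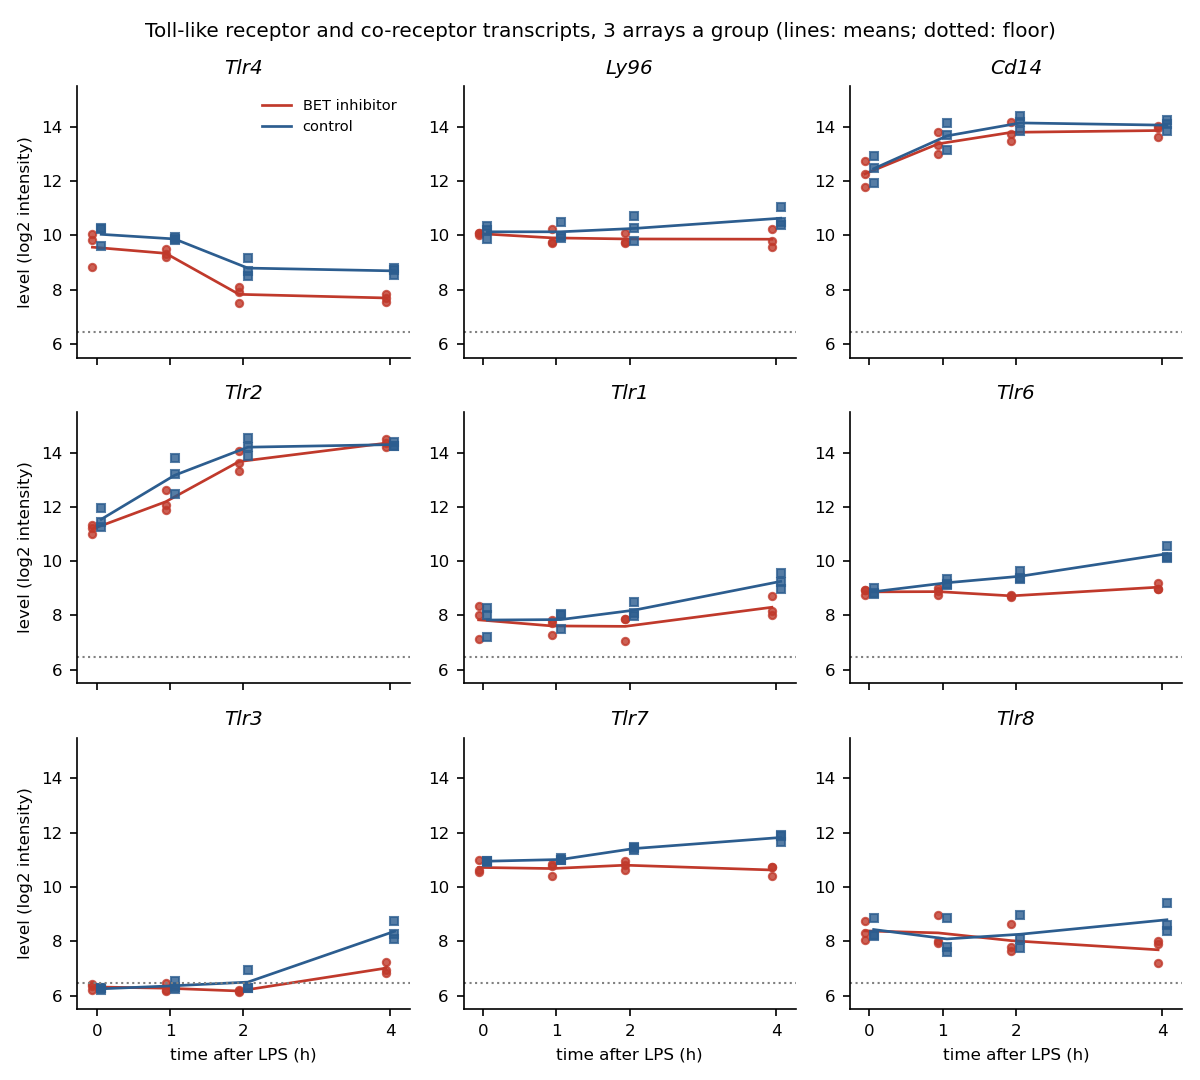
Level of each gene (log2 intensity, y axis) against hours of LPS (x axis), with BET-treated arrays as red circles, control arrays as blue squares, lines through the means of 3 arrays and the background floor dotted. Tlr2 and Cd14 climbed in both treatments and met near 14 at 4 h, Tlr4 fell in both, and Tlr1, Tlr3, Tlr6 and Tlr7 climbed in control cells to 4 h levels that lay above every BET-treated array of that time.

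Start-site sequences are shown for 4 genes whose results at 4 h differed, Tlr2, with no called difference between BET-treated and control cells, and Tlr1, Tlr3 and Tlr6, whose 4 h levels were lower in BET-treated cells. They are RefSeq windows of build GRCm38.p6 reaching from 250 bases before an annotated start to 50 bases after it, written 5′ to 3′ in the gene's direction. RefSeq windows were at hand for 6 of the 10 genes, 8 windows in all, and for the genes with 2 windows the one that held a match is printed. Capitals mark matches, on either strand, to 4 motifs: the NF-kB consensus, the interferon response core GAAANNGAA, the AP-1 motif TGANTCA and the PU.1 motif GAGGAAG.
Tlr2 at chr3:83841559-83841858, minus strand: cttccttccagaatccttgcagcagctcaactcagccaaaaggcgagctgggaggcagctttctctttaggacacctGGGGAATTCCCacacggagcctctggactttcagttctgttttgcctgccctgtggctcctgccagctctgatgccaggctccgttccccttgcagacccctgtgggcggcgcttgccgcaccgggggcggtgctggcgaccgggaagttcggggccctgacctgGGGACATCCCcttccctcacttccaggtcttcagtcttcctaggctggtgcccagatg
Tlr3 at chr8:45410331-45410630, minus strand: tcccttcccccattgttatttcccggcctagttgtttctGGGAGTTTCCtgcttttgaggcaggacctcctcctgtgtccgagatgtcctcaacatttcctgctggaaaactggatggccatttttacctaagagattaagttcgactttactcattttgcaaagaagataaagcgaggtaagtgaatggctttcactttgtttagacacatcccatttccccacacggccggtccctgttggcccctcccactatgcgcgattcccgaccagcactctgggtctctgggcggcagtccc
Tlr6 at chr5:64959117-64959416, minus strand: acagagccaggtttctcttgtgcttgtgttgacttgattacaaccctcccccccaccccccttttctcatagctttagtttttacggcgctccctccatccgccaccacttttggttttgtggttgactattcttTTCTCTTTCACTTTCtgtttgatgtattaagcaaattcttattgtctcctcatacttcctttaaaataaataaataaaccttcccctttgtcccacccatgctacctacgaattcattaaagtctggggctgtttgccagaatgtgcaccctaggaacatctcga
Tlr1 at chr5:64933509-64933808, minus strand: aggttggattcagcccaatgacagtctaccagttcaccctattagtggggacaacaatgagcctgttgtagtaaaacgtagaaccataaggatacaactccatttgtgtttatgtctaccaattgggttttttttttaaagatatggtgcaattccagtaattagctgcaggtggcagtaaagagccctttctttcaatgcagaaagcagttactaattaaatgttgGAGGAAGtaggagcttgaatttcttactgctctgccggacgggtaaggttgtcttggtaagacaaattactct
The Tlr2 window held NF-kB matches starting 173, 172 and 8 bases before the start, the first pair overlapping in 1 stretch, and the Tlr3 window held 1 starting 211 bases before it. The Tlr6 window held a pair of overlapping interferon cores, 115 and 109 bases before the start, and the Tlr1 window 1 PU.1 match 23 bases before it. Tlr6 and Tlr1 each have another RefSeq window, at chr5:64959999-64960298 and chr5:64932650-64932949 in that order, not printed here, with 0 matches to the 4 motifs. Tlr8, also called lower at 4 h, has a window that is not printed either. It lies at chrX:167264280-167264579 and held 1 interferon core starting 67 bases before the start. The remaining window is that of Tlr9, which is not analysed here. Of all 32851 RefSeq windows of this length, 8.46% held the NF-kB consensus, 8.56% the interferon core, 7.81% the AP-1 motif and 13.6% the PU.1 motif. A match describes the letters of these windows and was not tested for binding. Tlr1 and Tlr6 lie side by side on chromosome 5, and Tlr7 and Tlr8 on chromosome X, with 0 annotated genes between them.

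In control macrophages LPS raised Tlr2 and Cd14 first, then Tlr6 and Tlr7, and by 4 h also Tlr1 and Tlr3, while Tlr4 fell. In BET-treated macrophages the rises of Tlr2 and Cd14 and the fall of Tlr4 were also called, a smaller rise of Tlr3 was called at 4 h, and no rise of Tlr1, Tlr6 or Tlr7 was called at any time. Set against control cells of the same time, BET-treated cells had no called difference among the 9 genes at 0 or 1 h of LPS, 3 lower at 2 h and 7 lower at 4 h, and none was higher. A call is an adjusted p under 0.05 in the limma fit over all 24 arrays, with Benjamini-Hochberg adjustment over 8201 genes. This main fit has no term for the replicate number, and calls that change with such a term (a block) are given below.

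Each count is given beside the share of all genes called in the same comparison. At 0 h of LPS limma called 0 of the 9 genes between treatments, with 0 at an unadjusted p under 0.05, and 0.159% of all genes. At 1 h it called 0, with 4 at an unadjusted p under 0.05, and 1.3% of all genes. At 2 h it called 3, against 6.94% of all genes, or 4.22% counting only those lower in BET-treated cells. At 4 h it called 7, against 22.9% of all genes, or 10.2% counting only those lower. Tlr3 was tested because of its high levels at 4 h, so the count among the 8 genes above the floor on every array is given too, 3 at 2 h and 6 at 4 h. Of the 6551 genes above the floor on every array, fitted alone, 232 were called lower at 2 h and 599 at 4 h.

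The inhibitor effect was negative for 7 of the 9 genes at 0 h, 8 at 1 h, 9 at 2 h and 8 at 4 h. The median inhibitor effect over the 9 genes was -0.07 at 0 h, -0.30 at 1 h, -0.53 at 2 h and -1.00 log2 units at 4 h, where the medians over all genes were 0.00, 0.01, 0.04 and 0.04. Same-numbered BET-treated and control arrays deviated together, and within those pairs 3 of the 9 genes were lower in all 3 pairs at 0 h, and 8 of 9 at each of 1, 2 and 4 h. The share of all genes lower in all 3 pairs was not computed, so these pair counts have no background beside them. With the replicate number as a block, 2 genes were lower at 1 h, where 1.72% of all genes were, and 6 at 2 h, where 7.77% were.

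**Figure D2:**
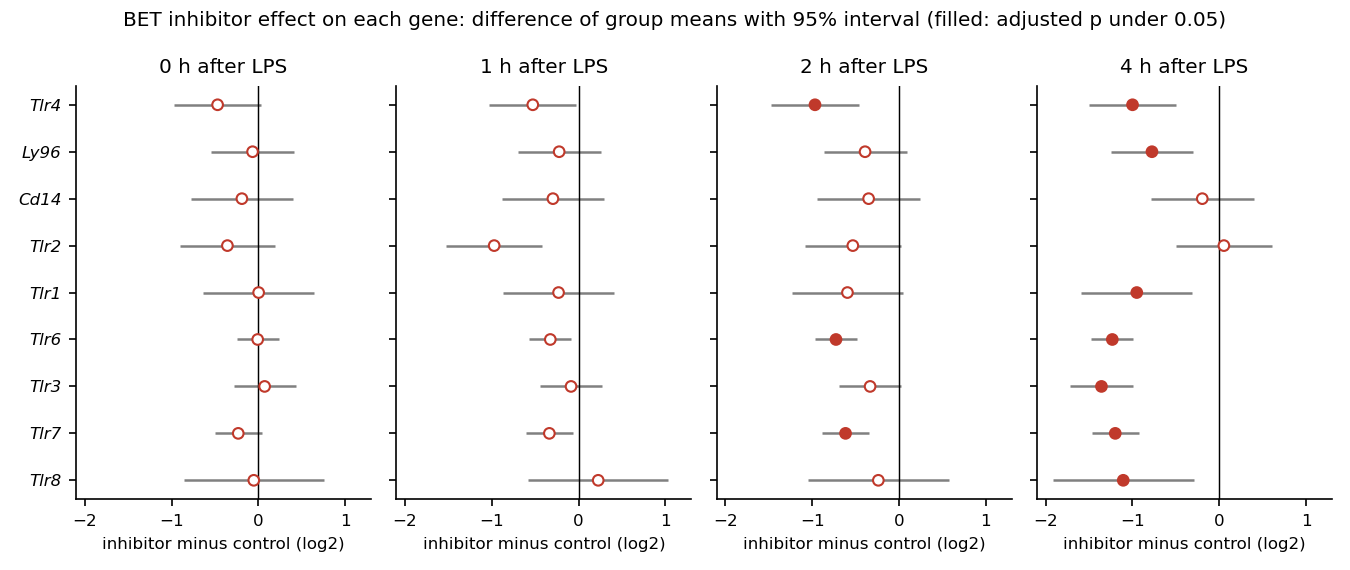
Inhibitor effect on each gene (BET-treated minus control mean, log2, x axis) at 4 times of LPS, with 95% intervals from limma and filled points at an adjusted p under 0.05. At 4 h the 7 filled points lie between -1.36 and -0.78, and Tlr2 and Cd14 lie at 0.05 and -0.20.

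The 3 genes of the LPS receptor complex are given one by one. Tlr4 (probe ILMN_2752966), the signalling receptor itself, was lower in BET-treated cells at 2 and 4 h and fell with LPS in both treatments. Ly96, the secreted co-receptor that binds the lipid part of LPS, was not called changed by LPS and was lower in BET-treated cells at 4 h. Cd14, the anchored LPS carrier, rose in both and was not called different between them at any time.

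At 4 h Tlr4 read 7.68, 7.84 and 7.56 log2 units on the BET-treated arrays, against 8.72, 8.81 and 8.54 on the control arrays. The groups did not overlap, and the difference of -1.00 ± 0.24 (SE, n = 3 each) was 2-fold lower, with an adjusted p of 0.00462 in limma. At 2 h the BET-treated arrays read 7.49, 8.09 and 7.90, against 8.51, 9.18 and 8.69 on the control arrays. These groups did not overlap either, and the difference was -0.97 ± 0.24 (limma adjusted p = 0.0149). That call at 2 h ended without BET-treated 2 h replicate 1 (adjusted p = 0.0838), without control 2 h replicate 2 (0.0891) and with only these 2 groups in the fit (0.0613), and it held in all 6 fits with the replicate block that left out 1 array, the highest adjusted p being 0.00919.

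Before LPS, Tlr4 averaged lower in BET-treated cells, but the groups overlapped and no difference was called. It read 8.84, 9.81 and 10.04 on the BET-treated arrays, against 9.60, 10.23 and 10.28 on the control arrays, a difference of -0.47 ± 0.24 (adjusted p = 1). At 1 h the difference was -0.53 ± 0.24, lower in all 3 pairs as at 0, 2 and 4 h, with an adjusted p of 0.775. The effect at 4 h differed from that at 0 h by -0.53, with a 95% interval from -1.24 to 0.18 and an adjusted p of 0.422, so a growth of the effect with LPS was not called. Without BET-treated 0 h replicate 1, the lowest array of its group, that difference was -0.89 with an adjusted p of 0.0484.

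With LPS, Tlr4 fell by 1.87 log2 units at 4 h against 0 h in BET-treated cells (limma adjusted p = 3.01e-06) and by 1.34 in control cells (0.000102). Both falls were in place at 2 h, at -1.74 in BET-treated cells (adjusted p = 2.44e-05) and -1.24 in control cells (0.000638). Neither was called at 1 h, with -0.23 in BET-treated cells and -0.17 in control cells. Without the 8 arrays numbered 1, the value in BET-treated cells at 1 h was -0.58 with an adjusted p of 0.0484.

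Ly96 at 4 h read 10.22, 9.56 and 9.79 on the BET-treated arrays, against 11.03, 10.38 and 10.48 on the control arrays. The groups did not overlap, and the pair differences were -0.81, -0.82 and -0.69. The mean difference of -0.78 ± 0.23 (SE) was 1.71-fold lower, with a limma adjusted p of 0.018. The call ended without control 4 h replicate 1 (adjusted p = 0.115), without BET-treated 4 h replicate 2 (0.0932) and without BET-treated 4 h replicate 3 (0.0588), and it held in all 6 such fits with the replicate block (highest 0.00104).

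Earlier, Ly96 stood at 10.06 ± 0.05 in BET-treated cells and 10.13 ± 0.23 in control cells at 0 h (SD, n = 3 each). At 2 h the difference was -0.39, which the block called (adjusted p = 0.0455) but which held in only 1 of the 6 blocked fits without 1 array. Against 0 h, Ly96 at 4 h differed by -0.21 in BET-treated cells (adjusted p = 0.486) and by 0.50 in control cells (0.0719). The block called the control rise (adjusted p = 0.00185, kept in 6 of 6 blocked fits), as did centring on housekeeping genes (0.0424), cyclic loess (0.0183) and leaving out control 4 h replicate 2 (0.0497).

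Cd14 was among the brightest genes, and intensities this high may be compressed. Only 92 of 25697 probes were brighter on average in BET-treated cells at 4 h and 71 in control cells. The 4 h arrays read 14.01, 13.63 and 13.94 in BET-treated cells, against 14.23, 13.83 and 14.11 in control cells. These groups overlapped, each pair was lower by 0.17 to 0.22, and the mean difference of -0.20 had a 95% interval from -0.79 to 0.40 (adjusted p = 0.698). The other times gave -0.19 at 0 h, -0.30 at 1 h and -0.35 at 2 h, none of them called.

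Cd14 was also one of the pair of genes raised within 1 h of LPS. It was higher at 1 h than at 0 h by 1.11 log2 units in BET-treated cells (limma adjusted p = 0.0336) and by 1.21 in control cells (0.0167). At 4 h it was higher than at 0 h by 1.60 in BET-treated cells (0.000119) and 1.61 in control cells (8.34e-05), and the difference between those rises was -0.01 with an interval from -0.84 to 0.83. The 1 h calls did not hold under every alternative fit. Under these alternatives the rise ran from 0.87 to 1.342 in BET-treated cells and from 0.959 to 1.465 in control cells. The call in BET-treated cells ended without BET-treated 0 h replicate 2 or 3, without BET-treated 1 h replicate 1 or 3, with no filter on dim probes and with only these groups fitted (highest adjusted p = 0.234). The call in control cells ended without control 0 h replicate 2 or 3, without control 1 h replicate 1 or 3 and with only these groups fitted (highest 0.158). With the replicate block both held in all 6 fits without 1 array.

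Among the receptors for bacterial lipoproteins, Tlr2 and its partners gave different calls at 4 h. Tlr2 had the largest LPS rise of the 8 genes above the floor throughout, and no inhibitor effect on it was called, whereas Tlr1, which pairs with it for triacylated lipoproteins, and Tlr6, which pairs with it for diacylated ones, were lower in BET-treated cells. Tlr6 gave the smallest adjusted p of the 9 genes for the inhibitor effect at 4 h.

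Tlr2 at 4 h read 14.48, 14.35 and 14.20 on the BET-treated arrays, against 14.40, 14.24 and 14.24 on the control arrays. The groups overlapped, and the difference of 0.05 had a 95% interval from -0.50 to 0.61 (limma adjusted p = 0.927). Tlr2 too was near the top of the scale, with 47 brighter probes in BET-treated cells and 52 in control cells. The interval therefore bounds the difference of these intensities, and a compressed difference of RNA was not tested.

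Before 4 h Tlr2 averaged lower in BET-treated cells, with no difference called in the main fit. At 1 h the BET-treated arrays read 12.61, 11.89 and 12.06, against 13.79, 12.49 and 13.20 on the control arrays. All 3 pairs were lower, by 1.18, 0.60 and 1.13, although the groups overlapped, control replicate 2 lying below BET-treated replicate 1. The mean difference was -0.97 ± 0.27 with an adjusted p of 0.092, and with the replicate block the adjusted p was 0.00123, which held in all 6 blocked fits without 1 array (highest 0.0164). It was also called without BET-treated 1 h replicate 1 (0.0463), without control 1 h replicate 2 (0.00631) and without the 8 arrays numbered 1 (0.028).

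The Tlr2 difference at 2 h was -0.53 (adjusted p = 0.308, and 0.0348 with the block, kept in 1 of 6 blocked fits), and at 0 h it was -0.36 (adjusted p = 1). Measured against 0 h, Tlr2 was higher by 1.00 in BET-treated cells and 1.62 in control cells at 1 h, by 2.48 and 2.66 in that order at 2 h, and by 3.16 and 2.75 at 4 h. Each of these rises was called, with adjusted p of 0.0396 and 0.000566 at 1 h and at most 8.65e-07 later. The rise at 4 h corresponds to 8.95-fold in BET-treated cells and 6.74-fold in control cells, and the difference between these rises was 0.41 with an interval from -0.37 to 1.19 (adjusted p = 0.623). At 1 h the call in BET-treated cells ended without any 1 of BET-treated 0 h replicates 1, 2 and 3 or BET-treated 1 h replicates 1 and 3, or with no filter on dim probes (highest adjusted p = 0.239), and it held in all 6 blocked fits. The call in control cells at 1 h ended only with just these groups in the fit (0.0621).

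Tlr6 at 4 h read 9.18, 8.98 and 8.96 on the BET-treated arrays, against 10.54, 10.17 and 10.10 on the control arrays. The groups lay apart by more than the spread of either, and the difference of -1.23 ± 0.12 was 2.35-fold lower, with a limma adjusted p of 2.03e-07. The BET-treated arrays of 2 h read 8.77, 8.68 and 8.71, against 9.62, 9.33 and 9.38 on the control arrays, again without overlap. That difference was -0.73 ± 0.12 with an adjusted p of 0.000364. At 1 h it was -0.33 (adjusted p = 0.373), lower in all 3 pairs, and at 0 h it was -0.01.

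Over time, Tlr6 rose in control cells and no change of it was called in BET-treated cells. In BET-treated cells Tlr6 averaged 8.87, 8.88, 8.72 and 9.04 at 0, 1, 2 and 4 h, the value at 4 h being 0.17 above that at 0 h (limma adjusted p = 0.237). In control cells it averaged 8.88, 9.20, 9.45 and 10.27, with rises of 0.57 at 2 h (limma adjusted p = 0.000941) and 1.40 at 4 h (4.95e-09), and one of 0.33 at 1 h that only the block called (0.0344, kept in 0 of 6 blocked fits).

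Tlr1 at 4 h read 8.02, 8.18 and 8.70 on the BET-treated arrays, against 8.99, 9.22 and 9.55 on the control arrays. The groups did not overlap, the pair differences were -0.97, -1.04 and -0.85, and the mean difference of -0.95 ± 0.31 was 1.93-fold lower (limma adjusted p = 0.0296). The call ended without BET-treated 4 h replicate 1 (0.107) or 2 (0.0877), without control 4 h replicate 2 (0.062) or 3 (0.117), with no filter on dim probes (0.0537) and with background subtracted (0.0758). It held in all 6 blocked fits without 1 array, with 0.000552 as the highest adjusted p.

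The Tlr1 groups of 2 h did not overlap either, with a difference of -0.59 that the block called (adjusted p = 0.333 without it and 0.00784 with it, kept in 5 of 6 blocked fits). LPS raised Tlr1 at 4 h by 1.42 in control cells (limma adjusted p = 0.000651). In BET-treated cells the 4 h value was 0.47 above that at 0 h, not called (0.225) except with the block (0.00927, kept in 5 of 6 blocked fits).

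The endosomal receptors were all lower in BET-treated cells at 4 h. Tlr3, which binds double-stranded RNA, was near background until 4 h. Tlr7, which binds single-stranded RNA, was lower at 2 and 4 h, and its neighbour Tlr8 at 4 h. The 3 genes gave the differences of -1.36, -1.20 and -1.11 log2 units at 4 h.

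Tlr3 was above the floor on all 3 arrays of a group only at 4 h. There it read 7.25, 6.82 and 6.95 on the BET-treated arrays, against 8.75, 8.07 and 8.27 on the control arrays. The groups did not overlap, and the difference of -1.36 ± 0.17 was 2.56-fold lower (limma adjusted p = 8.13e-06). At 0 h both groups lay below the floor, so no fold between treatments is given for that time.

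The 4 h rise of Tlr3 against 0 h is therefore a bound, the 4 h mean set against the floor. It was at least 1.47-fold in BET-treated cells and at least 3.76-fold in control cells. The limma adjusted p of 0.00264 and 3.38e-09, in that order, belong to the fitted rises of 0.689 and 2.118, not to these bounds. Tlr3 passed the filter through its 4 h levels, which favours a rise by then, so these p-values are given as description. At 2 h the control arrays read 6.95, 6.27 and 6.26, of which only replicate 1 passed the floor, and the BET-treated arrays read 6.17, 6.13 and 6.20, all below it.

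Tlr7 at 4 h read 10.41, 10.74 and 10.72 on the BET-treated arrays, against 11.64, 11.93 and 11.89 on the control arrays. The groups lay apart, the pair differences of -1.23, -1.19 and -1.17 were nearly equal, and the mean of -1.20 ± 0.13 was 2.29-fold lower (limma adjusted p = 1.11e-06). At 2 h the arrays read 10.61, 10.97 and 10.82 in BET-treated cells, against 11.36, 11.46 and 11.42 in control cells, without overlap, a difference of -0.62 ± 0.13 (0.00422). At 1 h the difference was -0.34, not called (0.468) except with the block (0.0484, kept in 0 of 6 blocked fits).

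A rise of Tlr7 with LPS was called in control cells and not in BET-treated cells. In BET-treated cells it averaged 10.71, 10.68, 10.80 and 10.62 at 0, 1, 2 and 4 h, the value at 4 h differing from that at 0 h by -0.09 (limma adjusted p = 0.589). In control cells it averaged 10.95, 11.01, 11.41 and 11.82, with called rises of 0.47 at 2 h (limma adjusted p = 0.0103) and 0.87 at 4 h (1.07e-05).

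Tlr8 at 4 h read 7.99, 7.88 and 7.18 on the BET-treated arrays, against 9.41, 8.60 and 8.36 on the control arrays. The groups did not overlap, though replicate 1 was the highest array of both. The difference of -1.11 ± 0.39 was 2.15-fold lower (limma adjusted p = 0.0447). The call ended without control 4 h replicate 1 (0.221) or 2 (0.0637), without BET-treated 4 h replicate 2 (0.0652) or 3 (0.193) and with no filter on dim probes (0.0824), and it held in all 6 blocked fits without 1 array (highest 0.000322).

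At earlier times the Tlr8 groups overlapped, with differences of -0.05, 0.23 and -0.24 at 0, 1 and 2 h. Against 0 h, Tlr8 at 4 h differed by -0.70 in BET-treated cells and by 0.36 in control cells, neither called (limma adjusted p = 0.151 and 0.451 in that order). The fall in BET-treated cells was called with the block (0.000909, kept in 6 of 6 blocked fits), with only these groups fitted (0.048) and without the 8 arrays numbered 1 (0.00807).

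**Figure D3:**
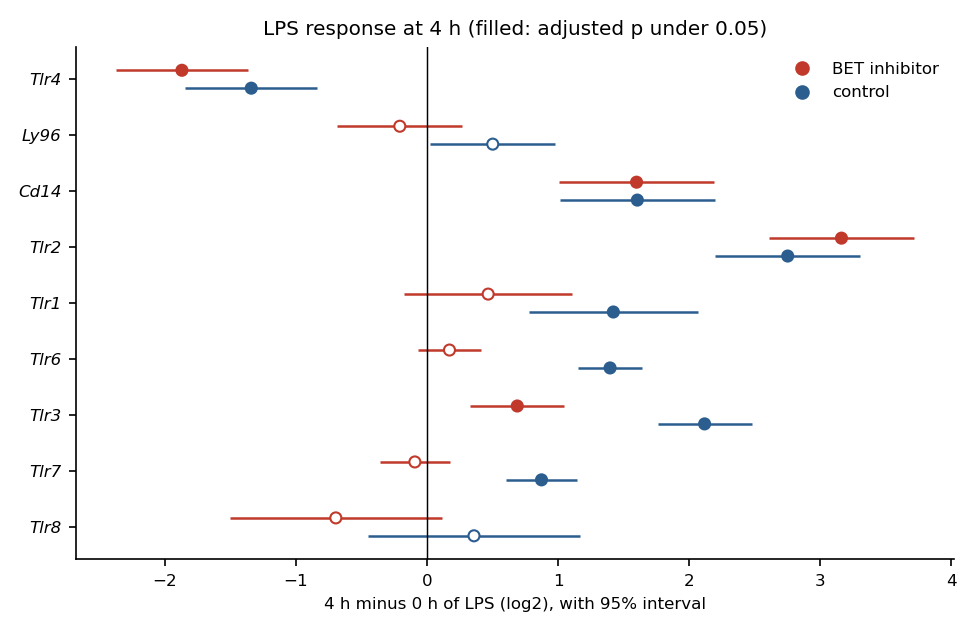
LPS response of each gene at 4 h (4 h minus 0 h mean, log2, x axis, with 95% intervals from limma) in BET-treated cells (red, upper point of each pair) and control cells (blue, lower point), filled at an adjusted p under 0.05. Tlr6 stands at 0.17 in BET-treated cells and 1.40 in control cells, Tlr7 at -0.09 and 0.87, and Cd14 at 1.60 and 1.61 in the same order. The Tlr3 points are fitted values with 0 h below the floor.

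The LPS calls among the 9 genes were counted by time. At 1 h 2 genes were called in BET-treated cells, both higher, against 3.21% of all genes called and 1.73% higher, and 2 in control cells, both higher, against 3.21% called and 2.15% higher. At 2 h 3 were called in BET-treated cells, 2 higher and 1 lower, against 17.9% of all genes (7.4% higher and 10.5% lower), and 5 in control cells, 4 higher and 1 lower, against 25.2% (10% higher and 15.2% lower). At 4 h 4 were called in BET-treated cells, 3 higher and 1 lower, against 46.4% of all genes (19.7% higher and 26.7% lower), and 7 in control cells, 6 higher and 1 lower, against 52.6% (19.8% higher and 32.8% lower). Tlr3 passed the filter through its 4 h levels, and among the 8 genes above the floor on every array 2 were higher at 4 h in BET-treated cells and 5 in control cells. Of the 6551 genes above the floor on every array, fitted alone, 1269 and 1202 were called higher in the same order. Within a treatment these comparisons share the 0 h arrays, and the difference of responses below is what tests the treatments against each other.

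The inhibitor effect at 4 h differed from that at 0 h for 3 of the 9 genes, all more negative at 4 h, against 8.02% of all genes and 3.85% counting only those more negative. Among the 8 genes above the floor on every array, which leaves out Tlr3, the count was 2. Of the 6551 genes above the floor on every array, fitted alone, 187 were called more negative. The difference equals the LPS response in BET-treated cells minus that in control cells. It was -1.43 ± 0.24 for Tlr3 (limma adjusted p = 0.000849), whose 0 h levels lay below the floor, -1.23 ± 0.16 for Tlr6 (8.4e-05) and -0.97 ± 0.18 for Tlr7 (0.00227). The Tlr3 p-value is given as description, since that gene passed the filter through its 4 h levels. With the replicate block 6 genes were called, against 7.88% of all genes more negative, adding Tlr1 (-0.95, adjusted p = 0.00282), Tlr8 (-1.05, 0.00263) and Ly96 (-0.71, 0.00923), each kept in 12 of 12 blocked fits without 1 array. Leaving out the 8 arrays numbered 1 also gave 6, against 528 of all 8201 genes more negative.

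At 2 h only Tlr6 was called, at -0.72 ± 0.16 (limma adjusted p = 0.041), where 0.878% of all genes were and 0.646% were more negative. That call ended with no filter on dim probes (0.0526), with only genes above the floor on all arrays (0.0605), with only these groups fitted (0.0725), and without control 0 h replicate 2 or 3, BET-treated 0 h replicate 2 or 3, control 2 h replicate 1 or 3, or BET-treated 2 h replicate 2 or 3 (highest 0.123). With the block it held in 12 of 12 fits without 1 array. At 1 h limma called 0 genes, with 0 at an unadjusted p under 0.05, and 0.0244% of all genes.

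Some of these genes followed each other closely over the 8 group means. Pearson's r was 0.97 for Tlr1 with Tlr3, 0.95 for Cd14 with Tlr2, 0.95 for Ly96 with Tlr7, 0.93 for Tlr1 with Tlr6 and 0.92 for Tlr6 with Tlr7. The value with Tlr3 rests mainly on the 4 h groups, since Tlr3 was near the floor before. The chromosomal neighbours Tlr7 and Tlr8 gave 0.67, and Tlr2 with Tlr4 gave -0.74. All of these values rest on the same 8 groups and are given as a description.

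Genes outside the set with the most similar course were found in the same way among 6055 named genes above the floor on all arrays. Epsti1 (r = 0.996), Gnb4 and Atp10a (0.993) were closest to Tlr3, and Crybg1 (0.991), the DNA sensor Aim2 (0.988) and the DNA repair nuclease Mre11a (0.987) to Tlr1. The likeness to Tlr3 again rests mainly on 4 h, its earlier levels being near the floor. Arid3a (0.991), the thrombin receptor F2r and Gpr171 (0.968) were closest to Tlr4. Aptx (0.983), Mocs1 and Strn3 were closest to Tlr6, Dnaja2 (0.988), Gnaq and Snrnp35 to Tlr7, Map11 (0.966), Dpysl2 and Scimp to Tlr8, and Pop4 (0.973), Lrrk1 and H2-M3 to Ly96. Cd14 and Tlr2 were not called between treatments and were left out of this search.

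Other genes of the pathway were counted in the same way, against the same 10.2% of all genes lower in BET-treated cells at 4 h. Of the remaining Toll-like receptors and the accessory, trafficking and processing proteins, 3 of 17 tested were lower in BET-treated cells at 4 h and 0 higher, with a median of 0.03 log2 units against 0.04 for all genes. The 3 were Cd180, a Toll-like receptor homologue, Tlr13, which binds bacterial ribosomal RNA in the mouse, and Tril, a Tlr3 and Tlr4 accessory protein. The filter favoured the place of Tril in this count, as described below. Of the adaptors and proximal signalling proteins, 3 of 24 were lower and 0 higher, with a median of -0.06. Of other pattern recognition receptors and nucleic acid sensors, 8 of 17 were lower and 0 higher, with a median of -0.79.

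**Figure D4:**
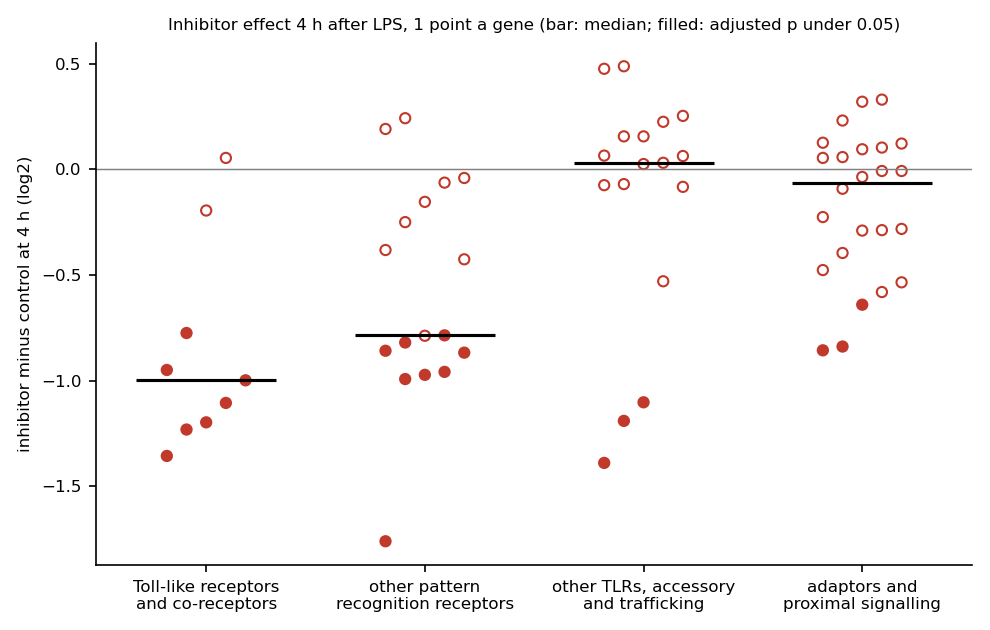
Inhibitor effect at 4 h of LPS (BET-treated minus control, log2, y axis), 1 point a gene, for the 9 genes described here and 3 lists of related genes, with bars at the medians and filled points at an adjusted p under 0.05. The medians are -1.00, -0.79, 0.03 and -0.06 from left to right.

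Cd180 at 4 h read 8.87, 8.67 and 8.75 on the BET-treated arrays, against 10.32, 10.20 and 9.95 on the control arrays, a difference of -1.39 (limma adjusted p = 1.47e-07) without overlap. Tlr13 read 8.76, 9.39 and 9.10 on the BET-treated arrays, against 10.17, 10.37 and 10.03 on the control arrays, a difference of -1.10 (3.17e-05). Tlr13 averaged 9.08 in BET-treated cells at 4 h against 11.34 at 0 h, and 10.19 in control cells at 4 h against 11.51 at 0 h. Cd180 averaged 8.76 in BET-treated cells at 4 h against 9.12 at 0 h, and 10.15 in control cells at 4 h against 9.23 at 0 h. Tril was below the floor in BET-treated cells and averaged 7.04 in control cells, so it was at least 1.5-fold lower. Its fitted difference was -1.191 (limma adjusted p = 7.36e-05). Of the 0 and 4 h groups, only control cells at 4 h had Tril above the floor. Passing the filter that way favours a lower BET-treated value, so this p-value is given as description.

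Among the signalling proteins the kinase Irak2 gave a difference of -0.86 at 4 h (limma adjusted p = 0.0049), Pik3ap1, an adaptor to PI3-kinase, -0.84 (0.000849) and Myd88, the adaptor shared by most Toll-like receptors, -0.64 (0.0266). Myd88 nevertheless averaged 12.10 in BET-treated cells at 4 h against 11.22 at 0 h, and 12.75 in control cells at 4 h against 11.21 at 0 h. Among the other sensors Dhx58, a RIG-I-like RNA sensor, gave -1.76 (0.000177), Nlrp3, the inflammasome sensor, -0.99 (0.00444) and Zbp1, a sensor of Z-form nucleic acids, -0.97 (0.000302). Aim2, Marco, Ifih1, Nod1 and Clec4d were the other 5 called.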

How the data were processed

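RNA of 24 samples was read on Illumina bead arrays of 1 colour, after Qiagen RNeasy purification and Ambion MessageAmp labelling, per the labels' protocols. The deposited values were read as log2 intensities that the authors had quantile normalized, since they ran from 5.354 to 15.172 and, rank by rank, all arrays lay within 0.004 of each other at 99% of ranks. Neither scale nor background treatment is given in the sources used here. The submitters' processing notes name limma. A table of non-normalized signals was not used, because no label ties its 72 value columns to samples.

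Probes were named by the platform annotation (23978 with 1 symbol, 1719 with none, 0 with several). The filter kept 10887 probes, those whose 3 arrays all exceeded the floor in 1 group or more. Each gene was its kept probe with the highest mean, giving 8201 features, 618 of them without a symbol and all called genes here. The fit of 8 group means used limma 3.58.1 (lmFit, eBayes, R 4.3.3) with 16 residual degrees of freedom and two-sided tests, and was tested on simulated data. Those data had independent noise on each array and changes in BET-treated cells at 4 h only. They do not show how the fit behaves where same-numbered arrays deviate together. Lists and promoter matches were computed with pandas 2.3.3. No background was subtracted in the main fit, and any correction of the deposited values is not stated, so changes of dim genes may be understated. Arrays give no counts, and their number limits the precision.

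The main fit had no term for the replicate number, which was used for the pair differences and the block. Same-numbered arrays were taken as pairs there, because their deviations from group means correlated above 0.1 in all 84 pairs of arrays (0.106 to 0.847). The values with the replicate number as a block stand beside results whose call they change. Where the samples came from separate cultures is not stated, so p-values measure the spread between these samples. The members, lists and settings were chosen with earlier results of these data known. Named genes were all members, the 3 named genes most like each member called between treatments, and the 3 largest called changes of each list at 4 h. For the other pattern recognition receptors and nucleic acid sensors, the rest of the called genes were named as well.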

Additional observations from a re-analysis of the deposited data

Results flagged for a closer look

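For 3 genes the inhibitor effect differed between times of LPS by a test of the difference itself, in the limma fit over all 24 arrays. The effect on Tlr6 at 2 h differed from that at 0 h by -0.718 log2 units (adjusted p = 0.041, lower at 2 h in 3 of 3 pairs) and that at 4 h by -1.225 (8.4e-05, lower at 4 h in 3 of 3 pairs). The effect on Tlr3 at 4 h differed from that at 0 h by -1.429 (0.000849, 3 of 3 pairs), with both 0 h groups below the floor. Tlr3 passed the filter through its 4 h levels, so its value and p are given as description. The effect on Tlr7 at 4 h differed from that at 0 h by -0.966 (0.00227, 3 of 3 pairs).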

How the results depend on the processing

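Of 117 results (9 genes in 13 comparisons), 37 were called, 28 of these kept their call under every alternative run singly, and none of the 117 turned its direction with a call. Of the 80 not called, 66 were called under none. The replicate block gave 2 called genes for the inhibitor effect at 1 h, 6 at 2 h and 6 for the difference at 4 h from 0 h, and leaving out the 8 arrays numbered 1, chosen after seeing the data, gave 1 at 1 h and 6 for that difference. The block changed no other count by over 1.5 times. The blocked fits without 1 array were also chosen after seeing the data. Without a filter on dim probes, 0 genes were called for LPS in BET-treated cells at 1 h and 0 for the difference at 2 h, which was also 0 with only probes above the floor on all arrays and with only the groups compared. With only those groups, LPS at 1 h gave 1 call in BET-treated cells and 0 in control cells. Leaving out 1 array gave 4 to 6 calls for the inhibitor effect at 4 h, 4 of them without BET-treated 4 h replicate 2, 2 to 3 at 2 h, 0 to 1 at 1 h, 0 to 1 for the difference at 2 h, 3 to 4 for that at 4 h, and for LPS at 1 h 0 to 2 in BET-treated cells and 1 to 2 in control cells. The cause of these changes was not tested, beyond the fewer arrays or other genes tested that each alternative brings. Over all genes, the share of calls at 4 h that were lower in BET-treated cells was 44.8%, but 69% with centring on housekeeping genes and 59.3% with cyclic loess. At 4 h against 0 h in control cells the share lower was 62.3%, but 46.6% with either. Centring moved the median of all genes by -0.12 and 0.13 in these comparisons. At 2 h against 0 h in control cells it was 60.3%, but 49.2% and 47.8%, and for the difference at 4 h 48%, but 84.7% and 62.1%, in the same order. Background correction and detection p-values of the non-normalized table were not run, and the stricter filter gives no value for Tlr3. Signals near the floor limit Tlr3 before 4 h, and those near the top of the scale limit Tlr2 and Cd14.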
